A study of Drosophila melanogaster with 2 samples.

Results

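The genes described here encode 34 chromatin regulators of Drosophila melanogaster, namely the Polycomb and trithorax proteins, ATP-dependent nucleosome remodellers with their partner histone deacetylases, and 3 proteins of heterochromatin. They were taken by name from a list of 34 symbols, all of which matched a gene, among the 13968 protein-coding genes of the Ensembl release 115 annotation on the dm6 build. By function there were 11 Polycomb genes, 8 trithorax genes, 11 remodeller genes and 3 heterochromatin genes, together with Su(Tpl), an elongation factor gene that overlaps the remodeller gene Mi-2. The binding data came from chromatin immunoprecipitation with sequencing (ChIP-seq) for cropped (crp) in whole embryos of mixed sex aged 0 to 16 h. The transgenic strain stably expressed crp with GFP fused to its C terminus, and the labels differ on the antibody, which the sample descriptions give as against GFP and the antibody field as crp. The study has 1 group, with biological replicates 1 and 3, and its chromatin was sonicated to 200 to 800 bp. The promoter that drove the fusion, and whether untagged crp was still present, are not given in the labels.

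Each replicate had a list of 30000 candidate peaks, and the pooled reads gave 26505 candidates. The list that passed the irreproducible discovery rate (IDR) procedure, which rests on how alike peaks rank in the replicates, held 1122 peaks. The signal value that the authors give each peak, a measure of its enrichment, had a median of 110.1 in the IDR list. It ran from 61.3 to 770.4 there, and the highest value of a pooled candidate outside the list was 61.1. The IDR list therefore held the highest pooled signals, and a candidate below it is a weaker and less certain mark. Membership does not show that a peak was found in each replicate. The IDR peak ranked 36, for example, had no replicate 1 candidate over its summit. The lowest signal was 9.58 in the replicate 1 list (median 12.5) and 10.9 in the replicate 3 list (median 14.5). A gene listed near these lowest values can thus differ little from an unlisted one. Read depth is unknown, because the lists hold no read counts. Peak lists carry no expression values, so the labelled tissue could not be checked against markers. With 1 group and no comparison between conditions, the counts below are descriptions set beside the same count over all protein-coding genes, and intervals of shares are Wilson 95% intervals that cover counting error only.

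Polycomb proteins keep developmental genes silent through cell division. The complex PRC2 methylates lysine 27 of histone H3, PRC1 binds that mark and ubiquitylates histone H2A, and DNA-binding proteins such as Pho bring both complexes to their elements. Trithorax proteins oppose them by methylating histone H3 at active genes or by moving nucleosomes. Remodellers use ATP to slide, evict or space nucleosomes, and heterochromatin proteins pack repeat-rich DNA. Many of these proteins are supplied to the fly egg by the mother and act from early embryonic stages. Cropped is the fly homolog of AP-4, a dimeric bHLH factor that recognises the E-box CAGCTG. An E-box is any hexamer of the form CANNTG.

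Of the 34 genes, 6 had an IDR summit no more than 1000 bp from a transcription start site (TSS), and they are Su(z)12, ph-p, Acf, Chd1, Mi-2 and Su(Tpl). This was 17.6% (8.35 to 33.5%) beside 11.1% of all protein-coding genes, a background that lies inside the interval. With a window of 500 bp the order turned, to 3 genes (8.82%) beside 10.2% of all genes, as ph-p, Acf and Mi-2 were lost. Only 5 summits stood behind the 6 genes, because Mi-2 and Su(Tpl) shared 1. The sequences around these summits, and at the 3′ ends of ash1 and Chd1, are shown first because few of them hold the AP-4 type of E-box. Each is the plus strand of dm6 from the RefSeq assembly, reaching 50 bp to each side of the summit except for a 30 bp site at the 3′ end of Chd1, and capitals mark CAGCTG.
Su(z)12 promoter, chr3L:19923487-19923587: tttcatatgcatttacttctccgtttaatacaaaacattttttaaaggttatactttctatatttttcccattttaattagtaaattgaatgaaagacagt
ph-p intron near a TSS, chrX:2137319-2137419: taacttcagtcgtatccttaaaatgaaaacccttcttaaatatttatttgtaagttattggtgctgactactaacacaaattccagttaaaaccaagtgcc
Acf first kilobase, chr3R:31794705-31794805: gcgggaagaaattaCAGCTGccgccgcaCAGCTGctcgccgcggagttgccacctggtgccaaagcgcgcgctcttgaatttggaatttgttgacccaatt
Chd1 promoter, chr2L:2987998-2988098: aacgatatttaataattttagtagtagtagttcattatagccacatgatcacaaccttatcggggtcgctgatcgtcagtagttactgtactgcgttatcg
Mi-2 and Su(Tpl), chr3L:19909507-19909607: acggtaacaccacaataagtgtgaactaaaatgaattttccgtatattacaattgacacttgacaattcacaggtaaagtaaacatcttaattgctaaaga
ash1 3′ end, chr3L:19590574-19590674: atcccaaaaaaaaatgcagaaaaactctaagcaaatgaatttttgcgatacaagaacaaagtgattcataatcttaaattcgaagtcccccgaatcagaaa
Chd1 3′ end, chr2L:2979269-2979298: cgaagttcgaaaCAGCTGagccgcagatgc
The Acf centre holds 2 copies of CAGCTG and the Chd1 3′ site 1 copy, whereas the other 5 stretches hold none.

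Among the Polycomb genes, 2 of 11 had an IDR promoter summit (18.2%, 5.14 to 47.7%), and they encode subunits of different complexes. Su(z)12, the zinc finger subunit of PRC2, lies at chr3L:19918242-19923462 on the minus strand. Its summit had a pooled signal of 214.7, which ranked 116 of 1122, with 113.6 in replicate 1 and 105.3 in replicate 3. The summit lay 75 bp upstream of the Su(z)12 TSS, in an intergenic stretch shared with the divergent prefoldin gene Pfdn6, whose TSS was 134 bp away, so the signal cannot be assigned to either gene alone.

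ph-p encodes a PRC1 subunit with a SAM domain, and lies at chrX:2126210-2138371 on the minus strand. Its peak had a pooled signal of 179.0 (rank 226), with 92.2 in replicate 1 and 89.0 in replicate 3. The summit fell in an intron, 514 bp upstream of an inner TSS and 1002 bp from the outermost one. The neighbouring gene ph-d is a tandem copy on the same strand and encodes a closely related PRC1 subunit. It begins 2923 bp past the downstream end of ph-p. Its strongest promoter candidate had a pooled signal of 40.0, with 13.9 in replicate 1 and 23.7 in replicate 3, below the IDR list. In the 401 bp around the ph-p summit, 23.9% of the bases aligned to sequence upstream of ph-d, at 89% identity, and no pooled candidate lay within 200 bp of the match. How the authors placed reads that match both copies is not given in the sources used here, so the split of signal between ph-p and ph-d is uncertain.

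The other Polycomb genes carried candidates below the IDR list or none. Values here and below are those of the strongest candidate in the promoter window of each list, which can lie at different sites. E(z), the PRC2 enzyme that methylates histone H3, had the highest of these, with a pooled signal of 51.8 at rank 1369, 19.9 in replicate 1 and 30.9 in replicate 3. Its summit was 97 bp inside the gene. esc, the WD-repeat subunit of PRC2, had 37.8 in the pooled list, 21.8 in replicate 1 and 17.1 in replicate 3. Pc, the chromodomain protein that reads methylated lysine 27, had 38.8 pooled, 22.0 and 19.4. Both replicates thus listed a weak candidate at each of these 3 promoters.

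Asx, which encodes a partner of the deubiquitinase that removes ubiquitin from histone H2A, had 33.1 in the pooled list with 19.5 and 18.2 in the replicates. Pcl, a PRC2 accessory protein, had 23.7 in the pooled list and 16.9 in replicate 1, and no candidate in replicate 3. pho, the gene of the DNA-binding protein, had 20.2 in the pooled list, near the lowest value there of 18.4, and its nearest IDR summit was 484707 bp away on chromosome 4. The RING finger genes of PRC1, Psc and Sce, had no pooled promoter candidate, and replicate 3 alone listed 13.1 and 11.3, both below the median of that list. In all, 9 of the 11 Polycomb genes had a pooled promoter candidate.

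None of the 8 trithorax genes had an IDR summit in the promoter window, and with 8 genes the interval still reached 32.4%. Weaker pooled candidates were listed at 5 of the 8 promoters, with signals from 23.2 at osa to 35.5 at Trl. brm, the ATPase of the Brahma complex, had 27.0 in the pooled list and 21.0 in replicate 3, and was unlisted in replicate 1. Its partner subunits mor and osa had 26.5 and 23.2 in the pooled list and a candidate in both replicates. The mor candidates lay apart, 8 bp downstream of the TSS in replicate 1 and 285 bp upstream in replicate 3. Snr1, another subunit, had no promoter candidate in any list, and neither had ash1. ash2, a subunit of the histone H3 lysine 4 methyltransferase complexes, was listed at 18.0 in replicate 1 and 28.2 in replicate 3 without a pooled candidate.

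Trithorax genes held IDR summits elsewhere. When the gene body extended by 1000 bp on each side was searched, 3 of 8 had a summit (37.5%, 13.7 to 69.4%), as against 9 of all 34 genes (26.5%, 14.6 to 43.1%) and 13.6% of all protein-coding genes. The listed genes were longer than most, with a median of 7771.5 bp beside 2164.5 bp for all genes, and the part of gene length in the body counts was not tested. The 3 genes were ash1, trx and Trl.

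The highest signal at any of the 34 genes belonged to the peak at the 3′ end of ash1, which encodes a methyltransferase for lysine 36 of histone H3. Its pooled signal was 257.2 (rank 60), with 138.4 in replicate 1 and 119.5 in replicate 3. The summit lay 149 bp beyond the end of ash1, in intergenic DNA, and 100 bp upstream of the TSS of CG14100, a gene on the same strand. At 202 bp the peak was narrower than the median IDR peak of 404 bp. The promoter of ash1, 8131 bp from this summit, was free of candidates in all lists.

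The summits in trx and Trl lay in introns and were weaker. trx, which encodes a methyltransferase for lysine 4 of histone H3, had a summit 2992 bp inside the gene with a pooled signal of 83.6 (rank 819). Its 2 replicates were unlike, with 29.3 in replicate 1 and 55.8 in replicate 3. Trl, the gene of GAGA factor, a DNA-binding protein that opens chromatin, had a summit 1473 bp inside the gene, with 78.6 pooled (rank 884), 40.1 in replicate 1 and 44.9 in replicate 3. The trx and Trl promoters themselves held pooled candidates of 32.7 and 35.5.

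**Figure D1:**
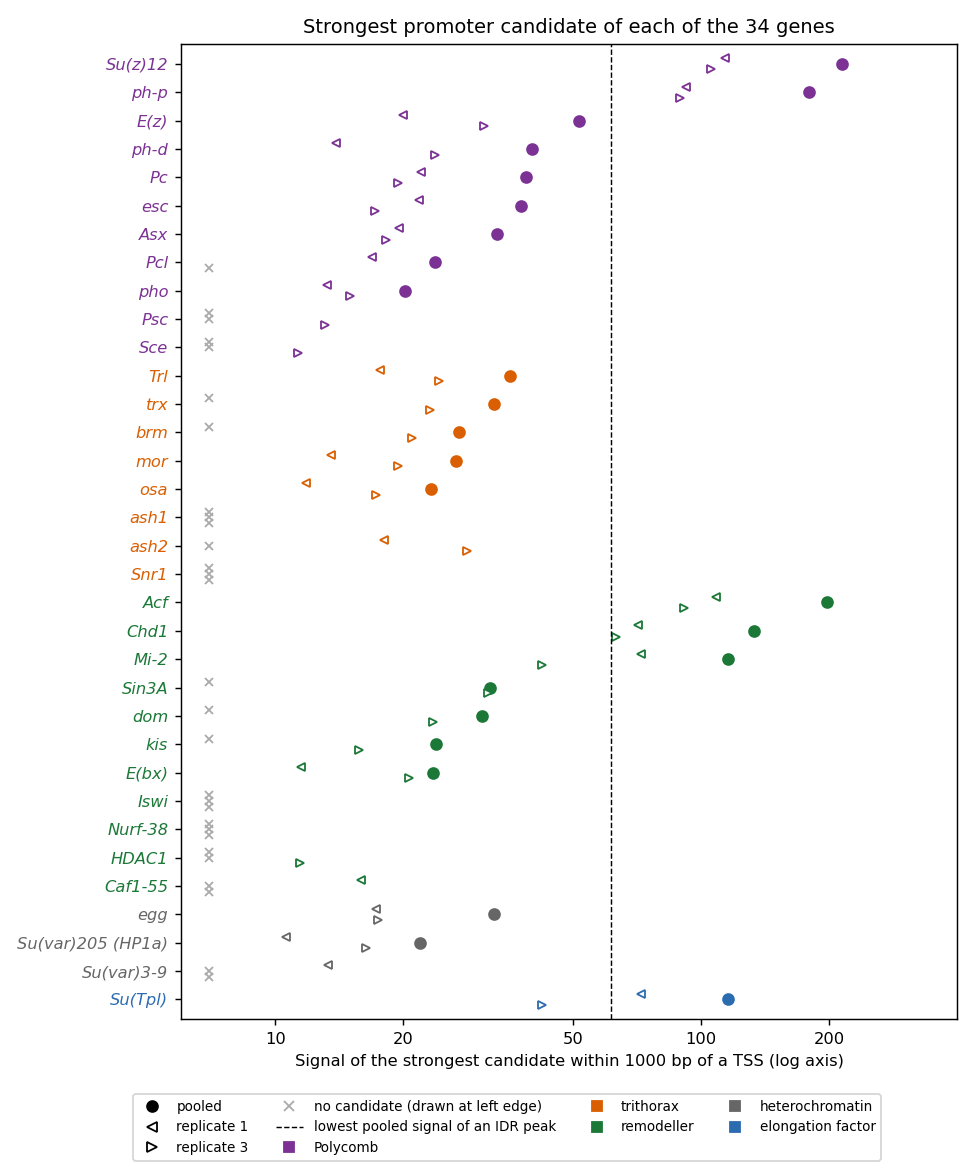
Signal of the strongest candidate within 1000 bp of a TSS for each of the 34 genes (horizontal log axis), as filled circles for the pooled list and open triangles for replicates 1 and 3. Crosses at the left edge stand for no candidate, colours give the functional group, and the dashed line is the lowest IDR signal of 61.3. Pooled values of 6 genes lie to the right of the line, and the next highest is E(z) at 51.8.

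Remodeller genes had 3 of 11 promoters with an IDR summit (27.3%, 9.75 to 56.6%), at Acf, Chd1 and Mi-2. Acf encodes the partner subunit of the ATPase Iswi in the nucleosome-spacing complexes ACF and CHRAC, and lies at chr3R:31793981-31799799 on the plus strand. Its peak had a pooled signal of 197.5 (rank 161), with 108.4 in replicate 1 and 91.1 in replicate 3. The summit was in an intron 774 bp downstream of the Acf TSS. The TSS of Mccc1, a gene for a subunit of a leucine-degrading carboxylase, was 848 bp away, beyond the Acf TSS and on the opposite strand.

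Chd1 encodes an ATPase that spaces nucleosomes over transcribed genes, and lies at chr2L:2979562-2987723 on the minus strand with an IDR peak at either end. The promoter peak had a pooled signal of 132.9 (rank 419), with 71.1 in replicate 1 and 63.1 in replicate 3. It lay 325 bp upstream of Chd1 and only 68 bp upstream of the divergent gene Bem46. The peak past the 3′ end was higher, with a pooled signal of 201.2 (rank 152), 109.3 in replicate 1 and 93.4 in replicate 3. It was 258 bp beyond the end of Chd1 and 16 bp upstream of the TSS of CG9643. Both Chd1 peaks and that of ash1 were thus nearest to the TSS of a gene outside the list.

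Mi-2, the ATPase of the NuRD and dMec complexes, spans 28165 bp at chr3L:19882051-19910215, and Su(Tpl), which encodes the elongation factor Ell, lies within it on the same strand at chr3L:19889120-19909410. The shared promoter summit was 147 bp upstream of the Su(Tpl) TSS and in a Mi-2 intron 658 bp downstream of the first Mi-2 TSS. Its pooled signal was 115.7 (rank 523), with 72.4 in replicate 1 and 42.2 in replicate 3. Another gene, Prp3, which encodes a splicing factor, began 743 bp away on the opposite strand. The peak lists cannot tell which of the 3 genes the signal belongs to.

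The Mi-2 body held 3 further IDR summits in a cluster about its middle, and 2 of them fell in the same 5′ UTR exon of Su(Tpl). The strongest had a pooled signal of 122.4 (rank 479), with 53.0 in replicate 1 and 86.7 in replicate 3. The next lay 201 bp from it with a pooled signal of 64.8 and 31.0 in replicate 3. Both were matched to the same replicate 1 candidate, whose summit was the closest. A weaker replicate 1 candidate of 11.2 also covered the summit of 64.8, but its own summit lay farther away. The last, in an intron of both genes, had a pooled signal of 67.0, with 31.8 and 33.8 in the replicates. Between this cluster and the promoter summit lay 12304 bp without an IDR summit.

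Just 6 of the 13968 genes had at least 4 IDR summits in the extended body, and Mi-2 and Su(Tpl) were a pair of them that shared the same 4. Per 10 kb of extended gene body Mi-2 held 1.33 IDR summits, as against 0.382 over the 34 genes and 0.179 over all genes, with a shared summit counted for each gene. Without Mi-2 and Su(Tpl) the value for the other 32 genes was 0.218, close to that of all genes. Candidates of any strength were dense there too, with 19 in the pooled list, 15 in replicate 1 and 20 in replicate 3. The pooled list gave 6.30 summits per 10 kb of Mi-2 beside 2.31 for all genes. These pooled counts include the 4 IDR peaks, so they are not separate from the IDR density. Su(z)12 lies on the same strand farther up the arm, and the stretch from the far end of Mi-2 to the start of Su(z)12 measures 41412 bp and holds 3 of the 6 genes with an IDR promoter summit.

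**Figure D2:**
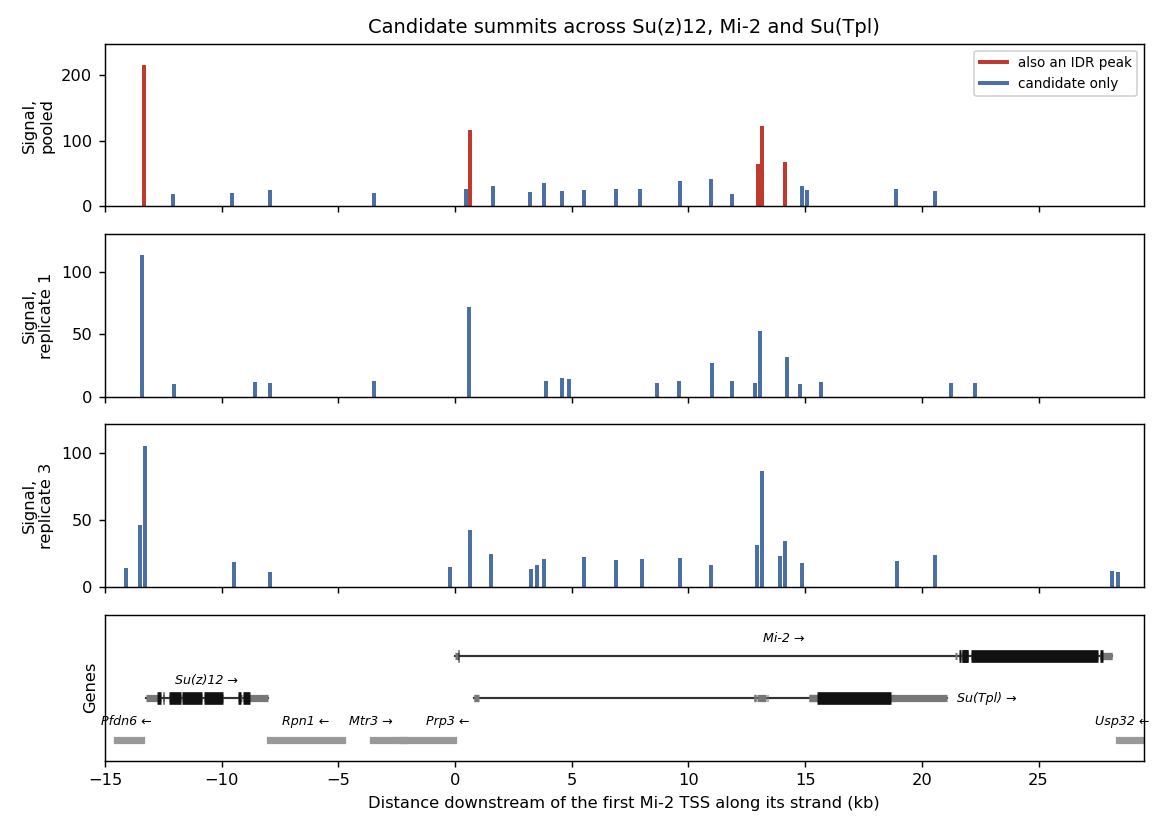
Candidate summits from Su(z)12 through Mi-2 and Su(Tpl), as vertical lines of signal against distance in kb downstream of the first Mi-2 TSS, for the pooled, replicate 1 and replicate 3 lists. Red lines are also IDR peaks, the bottom panel draws exons as boxes with coding parts in black, and genes not in the list are grey. The 4 IDR summits of Mi-2 sit 658 bp and between 12962 and 14115 bp from its first TSS, and the one at Su(z)12 reaches 214.7.

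The other remodeller genes showed weak or no promoter signal. Sin3A, the scaffold of a histone deacetylase complex, had 31.9 in the pooled list and 31.6 in replicate 3 and was unlisted in replicate 1. dom, the ATPase that exchanges histone H2A variants, had 30.6 in the pooled list and 23.5 in replicate 3. kis, a remodeller of the CHD family, had 23.8 and 15.7. These 3 genes had no replicate 1 candidate in the promoter window. E(bx), the large subunit of the remodelling complex NURF, had 23.4 in the pooled list with 11.5 and 20.6 in the replicates. These replicate candidates lay at different sites, 344 bp upstream of the TSS in replicate 1 and 922 bp upstream in replicate 3.

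Iswi, the ATPase that Acf partners, and Nurf-38, a pyrophosphatase found in NURF, had no promoter candidate in any of the lists. HDAC1, the deacetylase of the Sin3A and NuRD complexes, was listed in replicate 3 alone at 11.4, near the lowest value of that list. Caf1-55, a histone-binding subunit shared by PRC2, NURF and the chromatin assembly factor CAF-1, was listed in replicate 1 alone at 15.9. Acf thus had an IDR promoter summit and Iswi had none, and in PRC2 Su(z)12 had one while E(z) and esc had weaker candidates.

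Heterochromatin genes had no IDR summit, in the promoter window or in the extended body, and with 3 genes the interval reached 56.1%. egg, a methyltransferase for lysine 9 of histone H3, had 32.6 in the pooled list and 17.2 and 17.4 in the replicates. The gene of heterochromatin protein HP1a, which binds methylated lysine 9, had 21.9 in the pooled list with 10.6 and 16.3. Its replicate 1 candidate lay 124 bp downstream of the TSS and its replicate 3 candidate 149 bp upstream. Su(var)3-9, another lysine 9 methyltransferase, was listed in replicate 1 alone at 13.3. IDR summits lay 1896 bp from the TSS of the HP1a gene and 2169 bp from that of Su(var)3-9.

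Over the lists of candidates the 34 genes stood above the share of all genes in each, by amounts that differed. A pooled promoter candidate was present at 24 genes (70.6%, 53.8 to 83.2%) beside 50.7% of all genes. Replicate 1 listed 22 (64.7%, 47.9 to 78.5%) beside 52.2%, and replicate 3 listed 27 (79.4%, 63.2 to 89.7%) beside 54.8%. Both replicates listed a candidate in the window, not always at the same site, for 19 (55.9%, 39.5 to 71.1%) beside 37.1%. The share of all genes lay below the interval in the pooled list, in replicate 3 and in both replicates, and inside it in replicate 1. This is a description and not a test. The intervals treat the genes as separate although Mi-2 and Su(Tpl) share their strongest candidate, and the genes were chosen with earlier results known. Of the 24 genes with a pooled candidate, 6 had an IDR summit (25%) beside 21.9% of such genes overall.

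The same 6 genes were found from either replicate alone, though neither replicate is independent of the IDR list, which derives from both. When the 1122 strongest candidates of replicate 1 stood in for the IDR list, 6 of the 34 had a promoter summit beside 11.2% of all genes. With those of replicate 3 it was again these 6, beside 10.7%. The 18 genes with a pooled candidate but no IDR summit had signals from 20.2 to 51.8, with a median of 31.2. The median strongest promoter candidate over the 24 genes was 32.9, as against 28.4 over all genes with one. Among the 28 genes without an IDR promoter summit, the distance from a TSS to the nearest one ranged from 1473 bp at Trl to 484707 bp at pho, with a median of 11655 bp.

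**Figure D3:**
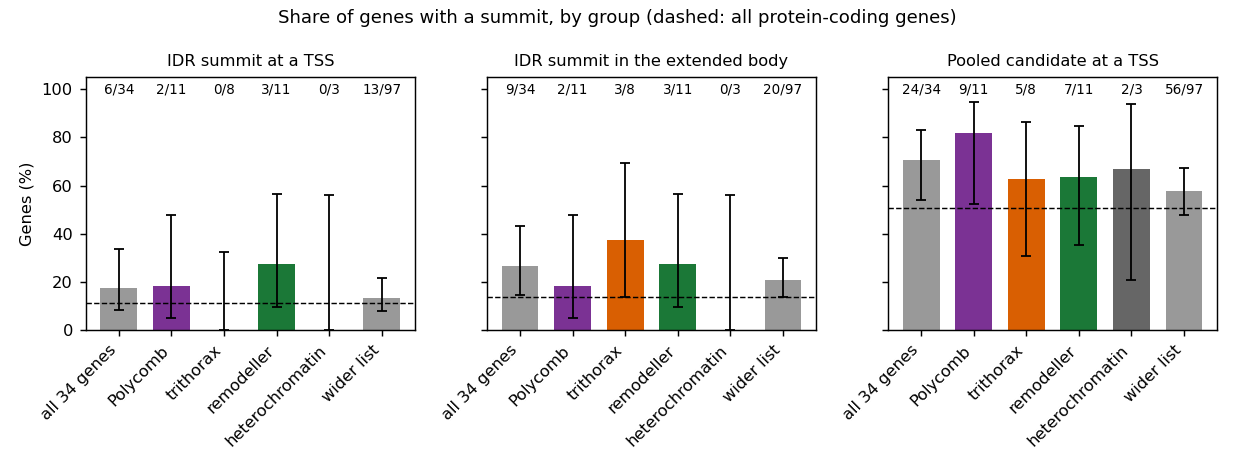
Share of genes (vertical axis, percent) with an IDR summit at a TSS (within 1000 bp), with one in the gene body extended by 1000 bp, or with a pooled promoter candidate, for all 34 genes, 4 functional groups and a wider chromatin list. Error bars are Wilson 95% intervals, numbers above give the counts, and the dashed lines are the shares of all protein-coding genes (11.1%, 13.6% and 50.7%). The intervals of the 4 groups overlap each other in every panel.

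A wider list of 97 chromatin genes from the same kinds of complex, none of them among the 34, had 13 with an IDR promoter summit (13.4%) beside the same 11.1%. Genes of remodellers, histone deacetylases and histone chaperones made up 8 of the 13, out of 37 of that kind (21.6%, 11.4 to 37.2%). MEP-1, the partner of Mi-2 in dMec, had the highest signal of them at 223.7, followed by the histone chaperone asf1 at 220.5. The ATPase genes Ino80, rept and XNP had 187.6, 180.9 and 173.8, and Chrac-14, a further partner of Acf and Iswi, had 127.2. The deacetylase gene HDAC6 and the remodeller gene Etl1 were lower, at 78.5 and 67.0.

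Polycomb and trithorax genes of the wider list each had 1 gene with a summit. jing, which encodes a zinc finger protein that works with PRC2, had a signal of 102.5 and was 1 of 12 Polycomb genes (8.33%, 1.49 to 35.4%). Bap170, a subunit of a Brahma complex, had 75.1 and was 1 of 21 trithorax genes (4.76%, 0.846 to 22.7%). Both intervals hold the 11.1% of all genes. Heterochromatin genes had 3 of 23, namely Hmr, the hybrid male rescue gene, at 109.5, Panx of the piRNA pathway at 96.0, and wde, the cofactor of egg, at 80.8. None of the 4 insulator genes had one. No test compared these groups, and their intervals overlapped.

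E-boxes were sought on both strands within 50 bp of each of the 12 distinct IDR summits in the extended bodies. CAGCTG was present at 2 of 12 (16.7%), Acf and the 3′ end of Chd1, beside 521 of 1053 promoter IDR peaks (49.5%). Over all IDR peaks the share was 48.2%. The summits of trx, Trl and the cluster inside Mi-2 lie more than 1000 bp from any TSS. For those, promoter peaks are not a like set, here and in the sequence comparisons below, and no share for peaks away from a TSS is given. Of the 5 promoter summits only that of Acf held it. Acf had its nearest copy with the midpoint 19 bp from the summit and the Chd1 3′ end 20 bp from it. At Su(z)12 the nearest copy was 73 bp away, at the strongest Mi-2 intronic summit 74 bp, at trx 81 bp, at the Chd1 promoter 88 bp and at ph-p 172 bp. The Su(z)12 copy was 12 bp from the nearest replicate 1 summit and 97 bp from the nearest replicate 3 summit.

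With the search widened to 100 bp, 6 of the 12 summits had CAGCTG (50%) beside 70% of promoter IDR peaks. None lay within 1000 bp of the summit at ash1, at the shared promoter of Mi-2 and Su(Tpl), or at Trl, a state that 4.94% of promoter IDR peaks shared. The ash1 peak is thus the strongest at these genes and among those with no AP-4 type E-box near. Its centre holds CAAATG, that of Su(z)12 CATATG, that of ph-p CAAGTG, that of the Chd1 promoter CACATG, and that of Mi-2 and Su(Tpl) both CAATTG and CAAGTG. In promoter IDR peaks these hexamers occurred in 8.55%, 4.27%, 7.12%, 3.23%, 3.70% and 7.12%, in that order. The centres of trx, Trl and the cluster inside Mi-2 held no E-box of any kind. The share of peaks with any E-box is not given, and whether other E-boxes take the place of CAGCTG was not tested.

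**Figure D4:**
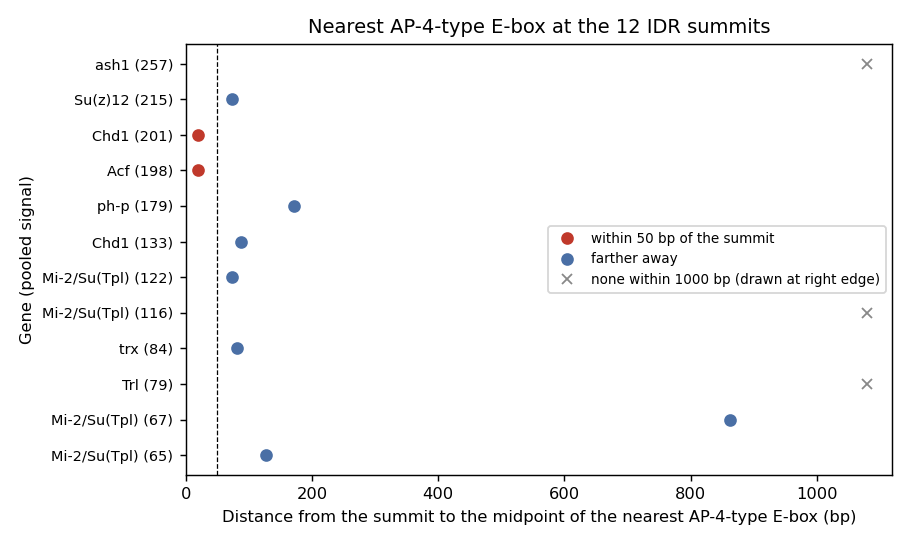
Distance in bp (horizontal axis) from each of the 12 IDR summits at the listed genes to the midpoint of the nearest AP-4 type E-box, with the summits ordered from top to bottom by pooled signal, given after the gene name. Red points have the E-box within 50 bp of the summit, the dashed line, blue points outside it, and crosses at the right edge have none within 1000 bp. Acf and the Chd1 3′ end are the 2 red points, at 19 and 20 bp.

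The summit centres were low in G and C, with a median of 33.2% over the 12 and a range from 20.8% at Trl to 57.4% at Acf. The median of promoter IDR peaks was 40.6%, and that of promoter IDR peaks without CAGCTG 35.6%. Whether base composition had a part in the low count of CAGCTG was not tested. GAGAG, a motif of GAGA factor, was present in 1 of the 12 centres beside 9.02% of promoter IDR peaks, and GCCAT, the core of the Pho motif, in 1 of 12 beside 17.6%. At the 18 genes with only a weaker pooled candidate, no candidate centre held CAGCTG, as against 408 of 5525 such genes (7.38%).

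Read the other way, from promoter sequence to peak, CAGCTG lay between 250 bp upstream and 50 bp downstream of a TSS in 7 of the 34 genes (20.6%), beside 22.3% of all genes. These were E(z), Su(z)12, ph-p, ph-d, ash1, ash2 and Sin3A, and 2 of the 7 had an IDR promoter summit, as against 36.2% of all genes with the site. Of the genes with an IDR promoter summit 72.8% had the site, whereas 4 of the 6 listed genes with such a summit lacked it.

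Below are 30 bp around these sites in 6 genes, because only 1 of them, at Su(z)12, lay near an IDR summit, 73 bp from it. All are the plus strand of dm6, with CAGCTG in capitals.
Su(z)12, 148 bp upstream of the TSS, chr3L:19923595-19923624: gcacctttcagaCAGCTGttttggtcagtg
ph-p, 126 bp upstream of an inner TSS, chrX:2136966-2136995: tgtgttggtgtgCAGCTGgatccgcttctc
ph-d, 129 bp upstream of a TSS, chrX:2123400-2123429: tgtgttggtgtgCAGCTGgatccgcttctc
E(z), 28 bp downstream of a TSS, chr3L:10637836-10637865: ctttttttgcaaCAGCTGccgcagtgtgac
ash1, 6 bp upstream of the TSS, chr3L:19598746-19598775: tttcagtgtgccCAGCTGgggtgtacgtga
ash2, 33 bp upstream of a TSS, chr3R:24651132-24651161: acactgttcgacCAGCTGattttggcacag
The ph-p site lay 388 bp from the ph-p IDR summit, farther than another copy of CAGCTG at 172 bp. The nearest pooled summit was 182 bp from the E(z) site, 403 bp from the ph-d site, 1073 bp from the ash1 site and 8478 bp from the ash2 site. The ph-p and ph-d stretches are identical at all 30 bases, and neither lay at the summit of a candidate.

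The 2 replicates ranked most of the 12 summits alike. The log2 ratio of replicate 3 to replicate 1 signal had a median of −0.14 over the 12, beside −0.16 with an SD of 0.59 over all IDR peaks. The 6 highest summits, from ash1 down to the Chd1 promoter, had replicate 1 values that exceeded those of replicate 3 by small amounts, with log2 ratios between −0.25 and −0.05. The lower summits varied more. The ratio was 0.93 at trx and 0.71 at the strongest Mi-2 intronic summit, both higher in replicate 3, and −0.78 at the shared Mi-2 and Su(Tpl) promoter and −0.77 at the intronic summit next to the strongest, both higher in replicate 1. The last of these ratios rests on the replicate 1 candidate that 2 summits share. A weaker replicate 1 candidate of 11.2 also covered that summit, and with it the signal would be higher in replicate 3. The direction at that summit is therefore uncertain.

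In all, 4 of the 12 departed from the median of all IDR peaks by more than 1 SD, beside 26.6% of all IDR peaks, and 3 of these 4 were in Mi-2. Summit positions in the replicates were a median of 64 bp apart at these peaks, with a range from 9 to 117 bp, beside 30 bp over all IDR peaks, of which 1 in 10 exceeded 93.6 bp. A spacing of that size bears on the E-box counts, which depend on where the search window is centred.

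**Figure D5:**
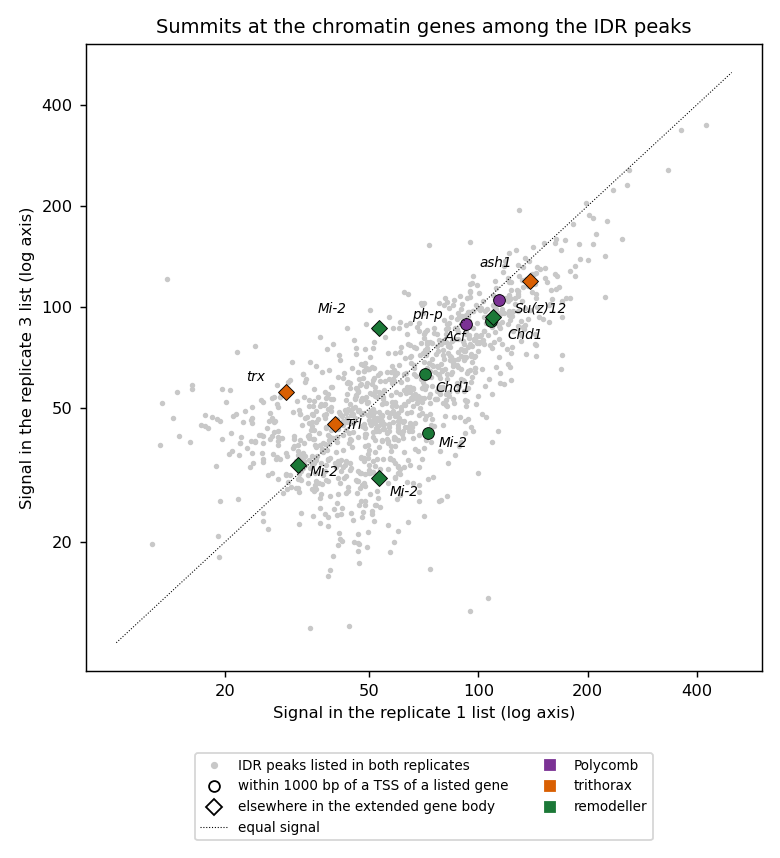
Signal of the IDR peaks listed in both replicates, in the replicate 3 list (vertical log axis) against the replicate 1 list (horizontal log axis), with the 12 summits at the listed genes in colour. Circles lie within 1000 bp of a TSS of a listed gene and diamonds elsewhere in the extended gene body. The diamonds of ash1 and the Chd1 3′ end lie near the TSS of a gene outside the list. The dotted line marks equal signal. ash1, Su(z)12, ph-p, Acf and both Chd1 summits sit near the line, while trx and the strongest Mi-2 intronic summit lie above it and the Mi-2 promoter summit below it.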

How the data were processed

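ChIP-seq peak lists of crp-GFP from replicates 1 and 3 of 1 group were used. The authors deposited dm6 and dm3 lists, and the dm3 lists were not used. Per the file headers, the IDR list derives from both replicate lists and the pooled list, and all candidate lists share 1 control, which was not analysed here. The deposited signal value was used as given, and a summit was placed by the deposited offset from the peak start. The sources used here do not give the aligner, the peak caller, their versions or the IDR threshold, and depth is unknown. A whole-embryo profile averages over cell types.

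Summits were assigned to protein-coding genes of Ensembl release 115 within 1000 bp of a TSS, or in the gene body extended by 1000 bp. Sequences came from the RefSeq dm6 assembly. Where several candidates lay in a window, the strongest of each list was reported, so values of 1 gene can come from different sites. The rule for named items was all 34 genes, every IDR summit in their extended bodies, and the wider-list genes with an IDR promoter summit. Of 98 wider-list symbols 97 matched. The members and lists were chosen with earlier results of these data known, so no p-values were computed. Summit assignment was tested on simulated data with planted summits. Python 3.11.15, NumPy 2.4.6, pandas 2.3.3, SciPy 1.17.1 and matplotlib 3.10.9 were used. Alternatives were other windows, other TSS and body rules, the stronger 561 IDR peaks, 1 replicate at a time, merged regions, nearest gene only, other groups and a wider motif search. An alternative that leaves out the locus of Mi-2 and Su(Tpl) was chosen after seeing the data.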

Additional observations from a re-analysis of the deposited data

How the results depend on the processing

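Of 78 values recomputed under 13 settings, 62 stayed within 1.5 times, among them group counts of 0 that stayed 0. The count of 9 genes with an IDR summit in the extended body became 6 with no extension and 12 with 2000 bp. The share of all genes under those body rules is not given. A 500 bp window left 3 genes with an IDR promoter summit (Chd1, Su(Tpl) and Su(z)12), or 8.82% beside 10.2% of all genes, so the order of these shares turned. It left 1 Polycomb gene, 1 remodeller gene and 0 promoter summits holding CAGCTG in the centre. A 2000 bp window gave 8 genes (23.5% beside 13.1%), adding Trl and the HP1a gene, so 1 trithorax and 1 heterochromatin gene, with 2 summits holding CAGCTG. Use of the 5′-most TSS alone left 1 Polycomb gene, since ph-p was lost. Assigning each summit to its nearest gene left 4 genes (11.8%) beside 7.37% of all genes, with 1 remodeller gene (Acf). The 561 stronger IDR peaks left 2 summits in Mi-2 and 6.49% of all genes. CAGCTG within 100 bp was present at 3 promoter summits. Leaving out 1 replicate gave 2 (without replicate 3) to 3 (without replicate 1) summits in Mi-2, and the cause was not tested. Promoter summits with CAGCTG numbered 0 (without replicate 1) to 2 (without replicate 3). Each of these counts takes the summits of the replicate that was kept. The Su(z)12 copy lay 12 bp from the nearest replicate 1 summit and 97 bp from the nearest one of replicate 3. At Acf the replicate 3 summit was 53 bp from the pooled one, on the side away from its nearest copy. No paired analysis was possible because there is only 1 group. Shares of groups of 3 to 11 genes are imprecise, and the depth that would limit weak candidates is unknown.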
